A study of Mus musculus with 3 samples.

Results

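The Rab GTPases are the largest branch of the Ras superfamily of small GTPases, and their transcripts were read here in mouse macrophage-like cells exposed to lipopolysaccharide (LPS), the outer-membrane glycolipid of Gram-negative bacteria. Members were all genes whose annotated symbol is Rab, a number and at most a letter and a digit more, and which had a probe set annotated to that gene alone. The array named 50 such genes among 12393, by 95 probe sets of 22690. RAW264.7 cells, a line grown from a mouse tumour that Abelson leukaemia virus had caused, were taken at 0 h, 2 h and 12 h of LPS. Each time had 1 array and no genotype, second agent, dose or parallel untreated culture is named in the labels, so time in culture and LPS cannot be told apart. The line is 1 transformed clone, which limits it as a model of macrophages.

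A Rab protein works as a switch. Loaded with GTP by an exchange factor, it sits on a particular membrane and recruits effectors such as tethers, motors and lipid kinases; a GTPase-activating protein ends the signal, and GDP dissociation inhibitor carries the inactive, prenylated Rab back through the cytosol. Different Rabs mark the endoplasmic reticulum and Golgi, early, recycling and late endosomes, phagosomes and secretory vesicles. In macrophages they guide phagosome maturation, cytokine secretion and the traffic of the LPS receptor TLR4, and much of that control acts on the protein rather than on its transcript.

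Few Rab transcripts moved by as much as 2-fold, the size at which a gene was called higher or lower. The same held for genes in general. By comparison and direction, 1.69% to 3.01% of all measured genes were called, and the Rab counts of 0 or 1 lie near that. Rab40c, which joins a Cullin ubiquitin ligase through a SOCS box, was 2.27-fold lower at 2 h than at 0 h. Rab20, found on maturing macrophage phagosomes, was at least 2.38-fold higher at 12 h than at 0 h. Rab43, a Golgi Rab, was 2.15-fold higher at 12 h than at 2 h, and Rab5c, an early endosome Rab, missed the 2-fold limit at 2 h with a 1.98-fold higher signal. With 1 array per time there is no replicate check and no test, and the difference between separate cultures was not measured.

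The start regions of Rab20, Rab5c and Rab40c are shown because these genes had the largest positive and negative differences from 0 h. Each sequence is the 250 bases before the annotated transcript start in RefSeq on mouse assembly GRCm38.p6, written 5′ to 3′ on the gene's own strand, with the base next to the start at the right end. All 3 genes lie on the minus strand. Capitals mark matches, on either strand, to any of 8 motif spellings chosen after the expression values were seen.
Rab20, chr8:11478641-11478890: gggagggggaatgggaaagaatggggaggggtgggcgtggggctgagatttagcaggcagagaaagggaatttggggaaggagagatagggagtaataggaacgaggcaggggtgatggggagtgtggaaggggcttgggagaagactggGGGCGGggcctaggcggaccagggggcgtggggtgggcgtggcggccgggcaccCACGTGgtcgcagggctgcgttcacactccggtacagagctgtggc
Rab5c, chr11:100738216-100738465: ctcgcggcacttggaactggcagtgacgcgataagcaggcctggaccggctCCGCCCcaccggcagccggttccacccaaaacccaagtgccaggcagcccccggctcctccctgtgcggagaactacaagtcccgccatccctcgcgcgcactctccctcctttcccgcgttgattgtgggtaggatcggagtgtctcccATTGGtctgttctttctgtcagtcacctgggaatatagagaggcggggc
Rab40c, chr17:25919715-25919964: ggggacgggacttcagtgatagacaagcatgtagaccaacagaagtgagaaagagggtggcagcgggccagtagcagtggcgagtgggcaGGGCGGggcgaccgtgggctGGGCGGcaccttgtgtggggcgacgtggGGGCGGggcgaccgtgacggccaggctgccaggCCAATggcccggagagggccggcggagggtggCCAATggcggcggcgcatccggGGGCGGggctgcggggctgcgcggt

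The Rab20 window held a GC box 100 to 95 bases before the start and an E-box 46 to 41 bases before it. In Rab5c a GC box and a CCAAT box, both read on the opposite strand, lay 199 to 194 and 49 to 45 bases before the start. Rab40c held 4 GC boxes, the nearest 25 to 20 bases before the start, and 2 CCAAT boxes at 79 to 75 and 47 to 43 bases. GC content was 65.2%, 63.2% and 72.4% in the 3 windows. None of the 3 held the letters searched for the NF-kB site (3 G, 2 free bases, 3 T and 2 C in a row), the interferon-stimulated response element (a pair of GAAA with 2 free bases between), the AP-1 site (TGANTCA), the cyclic AMP response element (TGACGTCA) or the TATA box (TATAAA).

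Across the family, RefSeq windows were found for 42 of the 50 genes, 54 windows in all because some genes have several starts. These windows were rich in GC, with a median of 60.2% against 52.4% over all 32851 windows. The full set covers 27025 genes, on the array or not, and was not matched to the Rab windows for GC. The GC box (GGGCGG) was present in 36 Rab windows, 66.7%, against 32.7% of all windows, and the TATA box in 2, 3.7% against 12.4%. CCAAT was in 22 Rab windows, 40.7% against 33.8%, and the E-box (CACGTG) in 5, 9.26% against 6.02%. The NF-kB letters occurred in 3 Rab windows, 5.56% against 1.41%, those of Rab15, Rab28 and Rab9. AP-1 letters were in 2 (Rab15 and Rab34), or 3.7% against 6.75%, cyclic AMP response element letters in 2 (Rab25 and Rab5a), or 3.7% against 1.55%, and the interferon-stimulated response element in 0 against 2.98%. None of these spellings contains another, windows of 1 gene can overlap, and the shares are descriptions of letters, not of bound sites.

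Signals are linear array intensities with every array on the same trimmed mean. A signal under 34.96, the 40th percentile of all values, was set to that floor before log2 was taken, and a gene counted as measured in a comparison when it reached the floor on at least 1 of its 2 arrays. Where 1 of the arrays was under the floor, the fold is a lower bound. Of the 50 Rab genes, 35 reached the floor on all 3 arrays, 3 on some (Rab20, Rab27a and Rab37) and 12 on none. Of all 12393 genes, 7318 reached it on all 3 arrays, 1421 on some and 3654 on none. Because the floor is a percentile of all values, the rule itself places part of the genes under it. The 12 under the floor were Rab3a, Rab3b, Rab3c, Rab4a, Rab6b, Rab17, Rab25, Rab27b, Rab30, Rab33a, Rab38 and Rab40b, with signals from 1.30 to 32.1. Several of these are best known from neurons (Rab3a, Rab3b, Rab3c, Rab6b), epithelia (Rab17, Rab25) or melanocytes (Rab38). No such tissue is given here for Rab4a, Rab27b, Rab30, Rab33a and Rab40b. Some Rabs known from other tissues did reach the floor. Rab15, studied mainly in neurons, read 127, 167 and 145, and Rab28, known from photoreceptors and cilia, read 192, 196 and 161. A probe set under the floor bounds the signal and does not show that the transcript was absent.

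**Figure D1:**
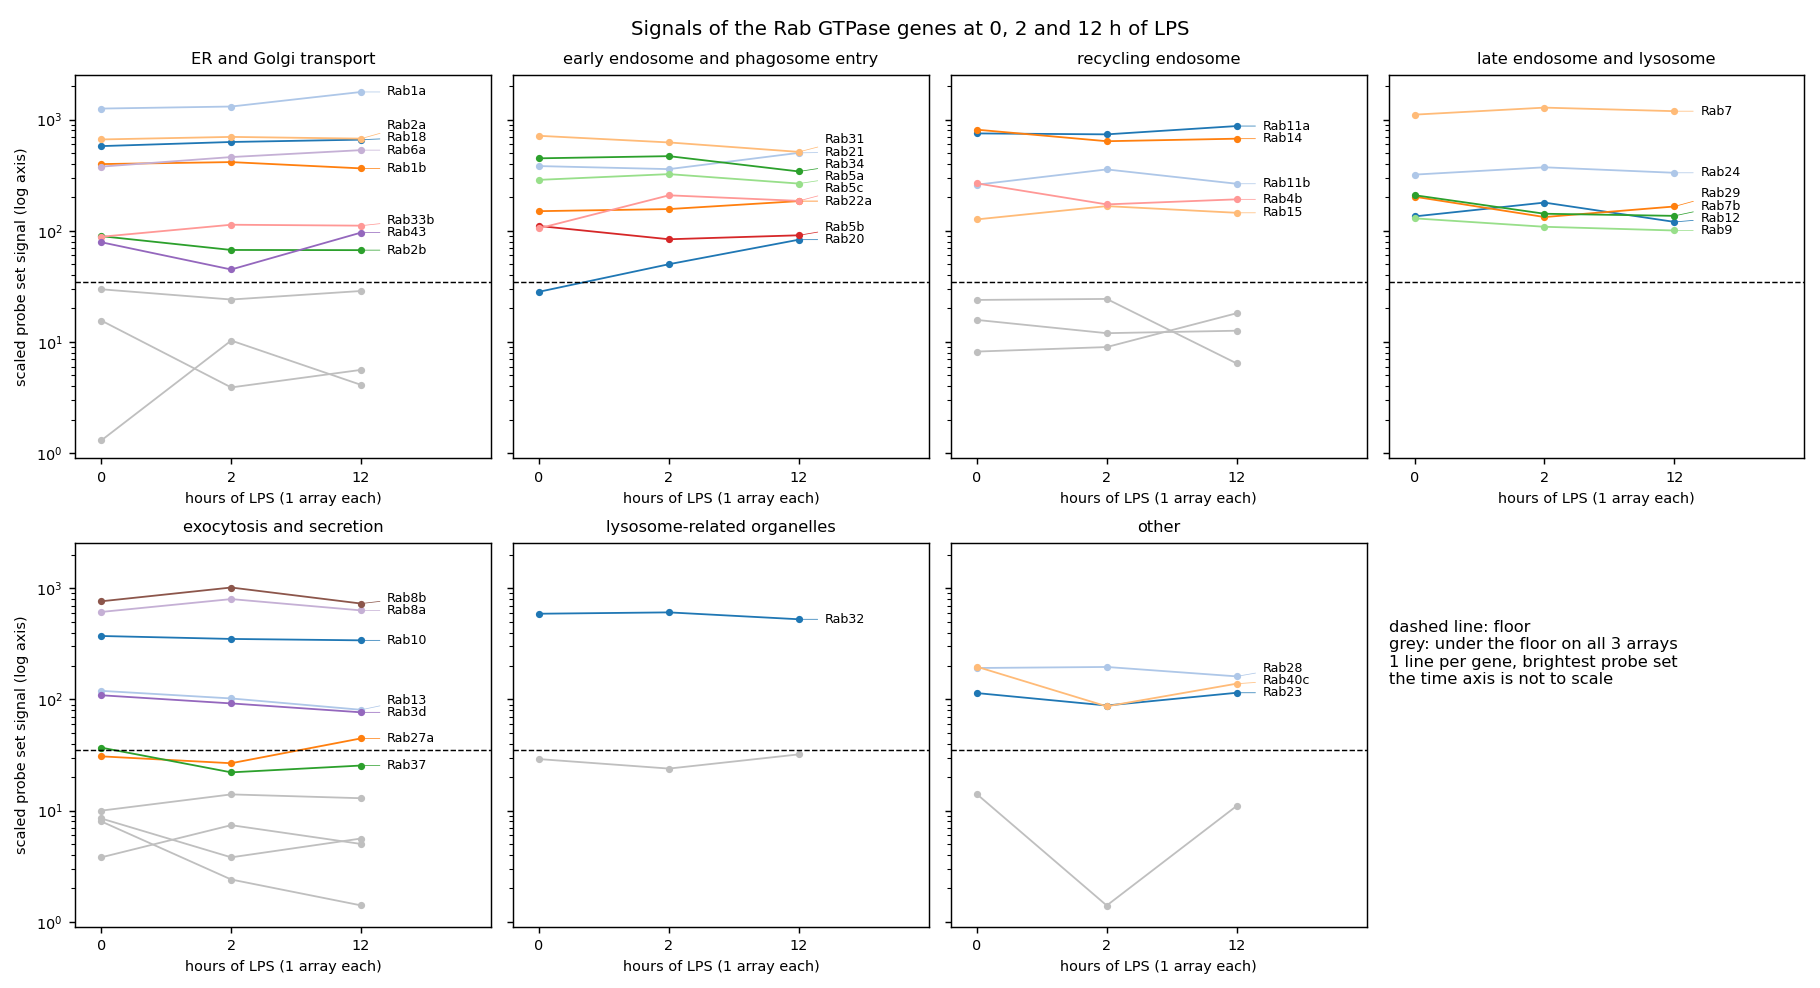
Scaled signal (log axis) of the 50 Rab genes, with 1 point per array at 0, 2 and 12 h of LPS, grouped by role. Grey lines are the 12 genes under the floor of 34.96 (dashed) on all arrays, and the points of most other genes lie close together, while those of Rab20, Rab40c, Rab43 and Rab5c spread apart.

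At 2 h against 0 h, 0 of 37 measured Rab genes were at least 2-fold higher, where 2.09% of all 8422 measured genes were, and 1 was at least 2-fold lower, where 1.69% of all genes were. At 12 h against 0 h, 1 of 38 was higher, against 3.01% of all 8629 genes, and 0 were lower, against 2.4%. At 12 h against 2 h, 1 of 37 was higher, against 2.65% of all 8467 genes, and 0 were lower, against 1.98%. Counts of 0 and 1 among so few members lie near these background shares. All 3 comparisons share arrays, so their values stand side by side and do not support each other. In RNA from whole cultures, fewer cells carrying a transcript and less of it per cell cannot be told apart.

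A 1.5-fold limit added few genes. At 2 h, 1 Rab gene was at least 1.5-fold higher than at 0 h (Rab5c), where 5.6% of all genes were, and 4 were lower (Rab40c, Rab43, Rab4b and Rab29), where 9.64% were. At 12 h, 2 were higher than at 0 h (Rab20 and Rab5c), against 8.32%, and 1 was lower (Rab7b), against 10.3%. Between 2 h and 12 h, 3 had the higher signal at 12 h (Rab43, Rab20 and Rab40c), against 10.2%, and 0 had the lower, against 6.45%.

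The middle of the family stayed near 0. The median log2 difference of the Rab genes from 0 h was 0.040 at 2 h and -0.072 at 12 h, beside -0.10 and -0.047 over all measured genes. From 2 h to 12 h it was -0.052, beside 0.051 over all genes. The median size of the difference, whatever its sign, was 0.25 and 0.28 in Rab genes for 2 h and 12 h against 0 h, and 0.25 and 0.27 in all genes. Rab genes therefore differed between arrays by about as much as genes in general. Scaling the arrays to one median raised the 2 h median of all genes to 0.031 and that of the Rab genes to 0.18, and quantile normalization gave -0.049 and -0.0082. The sign of the Rab median at 2 h thus changed with the scaling, and with it the number of Rab genes above 0, which was 20 of 37 as reported, 23 with median scaling and 17 with quantile normalization. Over all genes, the 176 higher and 142 lower at 2 h became 225 and 73 with median scaling and 200 and 86 with quantile normalization, and the 224 higher and 168 lower at 12 h against 2 h became 178 and 226 or 201 and 185.

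**Figure D2:**
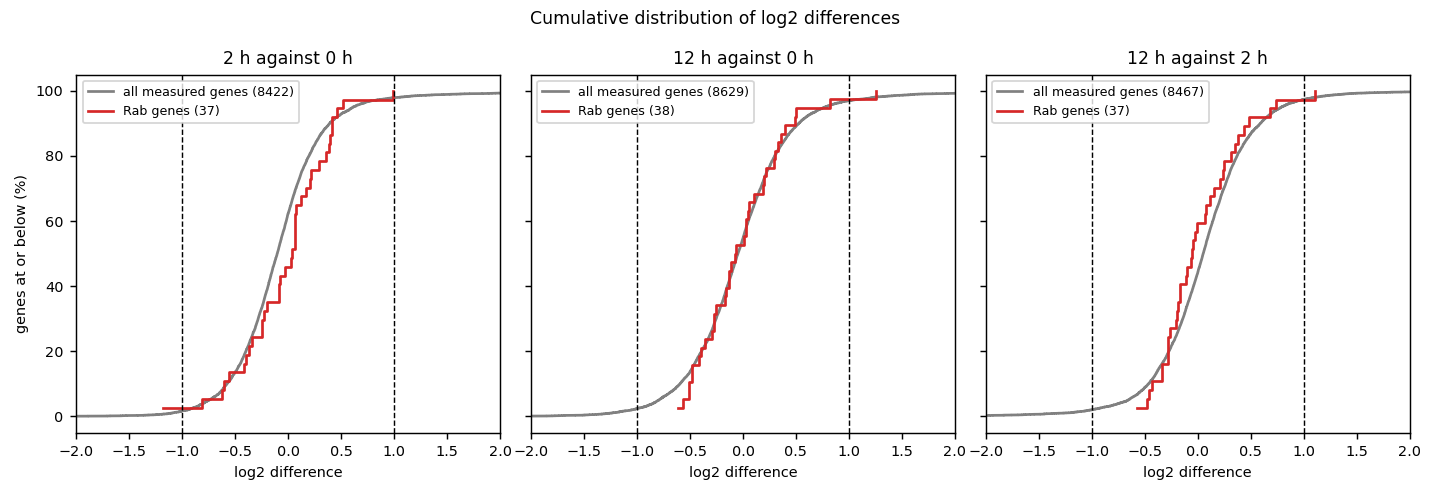
Cumulative share (percent) of measured Rab genes and of all measured genes against their log2 difference, for each of the 3 comparisons. The Rab curves run close to those of all genes, with medians of 0.040 against -0.10 at 2 h and -0.072 against -0.047 at 12 h, both relative to 0 h.

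Between probe sets of 1 gene, read on the same arrays, log2 differences in Rab genes had a standard deviation (SD). It was 0.26 at 2 h and 0.35 at 12 h against 0 h (16 genes with 38 probe sets and 18 genes with 42). From 2 h to 12 h it was 0.32 (17 genes, 39 probe sets). These values describe how far probe sets of 1 gene differ. An error shared by a whole array does not enter them, and they do not measure the difference between cultures. Of the genes named above, Rab20 and Rab5c had 1 probe set each, and Rab40c and Rab43 had 2.

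All 8 Rabs of early endosomes and phagosomes on the array were measured, and 2 of them, Rab20 and Rab5c, held the largest positive Rab differences from 0 h. Rab20 read 28.3 at 0 h, 50.1 at 2 h and 83.2 at 12 h. The 0 h signal lay under the floor, so the log2 difference was at least 0.52 at 2 h and at least 1.25 at 12 h, and it was 0.73 between 2 h and 12 h. Rab20 was the only Rab gene that was under the floor at 0 h and above it at both later times. Its 3 signals stayed dim for this array, and at a floor of 84.6, the 60th percentile, it was not measured at all. Under the other 7 alternatives tried its 12 h difference lay between 1.16 and 1.56.

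The Rab5 proteins drive fusion of early endosomes and of new phagosomes, and the 3 paralogs gave unlike values. Rab5c read 105 at 0 h, 209 at 2 h and 186 at 12 h, a log2 difference of 0.99 at 2 h (1.98-fold) and of 0.82 at 12 h (1.77-fold). Rab5a read 287, 324 and 266, a difference of 0.17 at 2 h and -0.11 at 12 h. Rab5b read 110.5, 83.9 and 91.1, a difference of -0.40 at 2 h and -0.28 at 12 h. Rab5c alone of the 3 thus neared the 2-fold limit. With median scaling its 2 h difference was 1.13 and with quantile normalization 1.05, both past 2-fold, and with a pseudocount of 16 in place of the floor it was 0.89. Each paralog had 1 probe set, so the values rest on a single set each.

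The other 4 genes of this group stayed under 1.5-fold in all 3 comparisons. Rab31, which acts between the trans-Golgi network and endosomes, read 716, 624 and 513, a log2 difference of -0.48 at 12 h, and its second probe set gave -0.38. Rab34, a Rab of macropinosomes and phagosomes, read 449, 470 and 342, a difference of -0.39 at 12 h, with -0.52 from its second probe set. For both genes the probe sets thus gave values of one sign at 12 h, below the 2-fold limit. Rab21, which takes part in integrin endocytosis, read 382, 359 and 503, and Rab22a, an early endosome Rab, read 150, 157 and 185. The probe sets of Rab21 did not give 1 answer, since its dimmer set differed by -0.95 at 2 h and -0.34 at 12 h where the brighter differed by -0.091 and 0.40. For Rab22a the brightest set gave 0.062 and 0.30. A dimmer Rab22a set, which passed the floor only at 0 h, read 42.7, 22.3 and 28.8, a difference of -0.29 or less at both times.

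Of the Rabs of the endoplasmic reticulum and Golgi, 8 of 11 were measured, and Rab43 aside 0 reached 2-fold. By comparison and direction, 1.69% to 3.01% of all genes did, so 0 in a group this small lies near the background. Rab1a, which moves cargo from the endoplasmic reticulum to the Golgi, read 1259 at 0 h, 1313 at 2 h and 1776 at 12 h, a log2 difference of 0.061 and then 0.50 (1.41-fold). Rab6a, a Rab of transport within and out of the Golgi, read 378, 461 and 532, a difference of 0.29 and then 0.49. Rab18, known on lipid droplets and the endoplasmic reticulum, read 578, 630 and 661. In these 3 genes the brightest probe set had its highest signal at 12 h, with no difference reaching 1.5-fold. The second probe set of Rab1a read 359, 414 and 391, a 12 h difference of 0.12, and that of Rab6a gave 0.59, past 1.5-fold. Rab33b, which binds the autophagy protein Atg16l1, read 88.4, 113 and 111, a difference of 0.36 at 2 h.

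Rab1b, the paralog of Rab1a, and Rab2a moved little on their brightest probe sets. Rab1b read 399, 415 and 365, and Rab2a, a Rab of the early secretory pathway, read 664, 700 and 675. Rab2a had 7 probe sets, of which 4 reached the floor, and at 12 h those 4 ran from -0.91 to 0.33 on the log2 scale. That range of 1.24 was the widest among Rab genes at 12 h, so the value of Rab2a depends on which probe set is read. Rab2b read 89.5, 67.3 and 67.0, a difference of -0.41 at 2 h, where the median over its 5 probe sets was 0.38.

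Rab43 had the one 2-fold difference between 2 h and 12 h. It read 78.9 at 0 h, 44.9 at 2 h and 96.5 at 12 h, a log2 difference of -0.81 at 2 h, 0.29 at 12 h and 1.10 from 2 h to 12 h. The 2 h signal was thus the low one and the outer times were close. A second probe set read 30.2, 35.3 and 35.8, at or near the floor throughout, and gave 0.020 from 2 h to 12 h. The median over both sets was 0.56, a pseudocount gave 0.89 and the higher floor 0.19, so the 2-fold call was lost under all 3.

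Among Rabs of recycling endosomes, 5 of 8 were measured and 0 reached 2-fold, near the 1.69% to 3.01% of all genes by comparison and direction. Rab11a, which carries TLR4 to phagosomes holding Gram-negative bacteria, read 752, 738 and 876, a log2 difference of -0.028 at 2 h and 0.22 at 12 h. Its dimmer probe set gave 0.069 and -0.14. Rab11a therefore had no clear direction. Rab11b, its close paralog, read 260, 357 and 265.1, a difference of 0.46 at 2 h. Rab4b, of the fast recycling route, read 267, 173 and 192, a difference of -0.63 at 2 h (1.55-fold) and -0.48 at 12 h. Rab4b held the most negative value of this group at both times, from 1 probe set.

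Rab14, which acts between the Golgi and endosomes, read 813, 640 and 674, a log2 difference of -0.35 at 2 h and -0.27 at 12 h. It had 6 probe sets, 5 of which were measured at 2 h, and they ran from -0.76, a bound at the floor, to 0.033. Rab15, an endosomal Rab studied mainly in neurons, read 127, 167 and 145. No member of the group had a pair of differences from 0 h that both passed 1.5-fold.

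All 6 Rabs of late endosomes and lysosomes were measured and 0 reached 2-fold, again near the 1.69% to 3.01% of all genes. Rab7, the Rab of late endosome and lysosome fusion, read 1110 at 0 h, 1284 at 2 h and 1193 at 12 h. Its log2 difference was 0.21 and then 0.10, and its second probe set gave -0.095 and -0.010. Rab7b, a related Rab known to direct TLR4 to lysosomes, read 209, 142 and 136, a difference of -0.55 at 2 h and -0.62 at 12 h (1.53-fold). That was the most negative Rab value at 12 h. The second Rab7b probe set read 142, 137 and 119, and gave -0.048 and -0.25. The 2 sets thus share a sign, and differ in size by more than the probe set SD at 2 h.

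Rab29, a partner of the kinase Lrrk2, read 203, 133 and 166, a log2 difference of -0.61 at 2 h (1.52-fold) and -0.29 at 12 h. Rab12, which takes part in the breakdown of transferrin receptor, read 135, 179 and 120, a difference of 0.41 at 2 h and -0.58 from 2 h to 12 h. Rab9, of transport from late endosomes to the Golgi, read 129.5, 109 and 101, a difference of -0.36 at 12 h. None of the 3 reached the 2-fold limit. Rab24, linked to autophagy, read 320, 373 and 333, a difference of 0.22 at 2 h against -0.52 from its second probe set.

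Rabs of exocytosis and secretion had 11 members on the array, of which 5 reached the floor on all arrays. Rab8a and Rab8b, which act in transport to the plasma membrane, followed a like course. Rab8a read 613, 800 and 633, a log2 difference of 0.38 at 2 h and 0.046 at 12 h. Rab8b read 764.5, 1017 and 729.5, a difference of 0.41 at 2 h and -0.068 at 12 h. In both, the 2 h signal was the highest of the 3, about 1.3-fold over 0 h. Rab10, which brings TLR4 to the surface of macrophages, read 373, 350.5 and 340.4, a difference of -0.088 and -0.13. Its other 2 probe sets gave 0.44 and -0.54 at 12 h, with opposite signs.

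Rab3d, of regulated secretion, read 109, 92.1 and 76.6, a log2 difference of -0.51 at 12 h, against 0.17 from a second probe set. Rab13, known from cell junctions, read 119.6, 102 and 80.7, a difference of -0.57 at 12 h. Both lay between 1.4-fold and 1.5-fold at that time. Rab27a, a Rab of secretory lysosomes, read 30.8, 26.7 and 44.7 and passed the floor only at 12 h, a difference of at least 0.35. Rab37, of mast cell and other secretory granules, read 36.9, 22.1 and 25.4 and passed it only at 0 h, which bounds its difference at 2 h and 12 h to -0.077 or less. Neither dim gene can carry a direction.

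Of the Rabs of lysosome-related organelles, Rab32 was measured and Rab38 was not. Rab32, which helps macrophages restrict Salmonella, read 591, 608 and 527, a log2 difference of 0.040 at 2 h and -0.17 at 12 h. Its transcript thus stayed within 1.2-fold across the 3 arrays.

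Rab40c, among the Rabs with other roles, had the most negative difference in the family. It read 197 at 0 h, 86.7 at 2 h and 139 at 12 h, a log2 difference of -1.18 at 2 h, -0.51 at 12 h and 0.68 from 2 h to 12 h. Its second probe set read 58.6, 27.2 and 52.5, and its difference was -0.75 or less at 2 h and -0.16 at 12 h. Both sets were thus lowest at 2 h. The 2 h difference was -1.04 with median scaling and -1.09 with quantile normalization, and -0.97, just short of 2-fold, as the median over both probe sets. Rab23, an inhibitor of Hedgehog signalling, read 114, 88.2 and 115, a difference of -0.37 at 2 h. Rab28, known from photoreceptors and cilia, read 192, 196 and 161, a difference of -0.25 at 12 h.

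**Figure D3:**
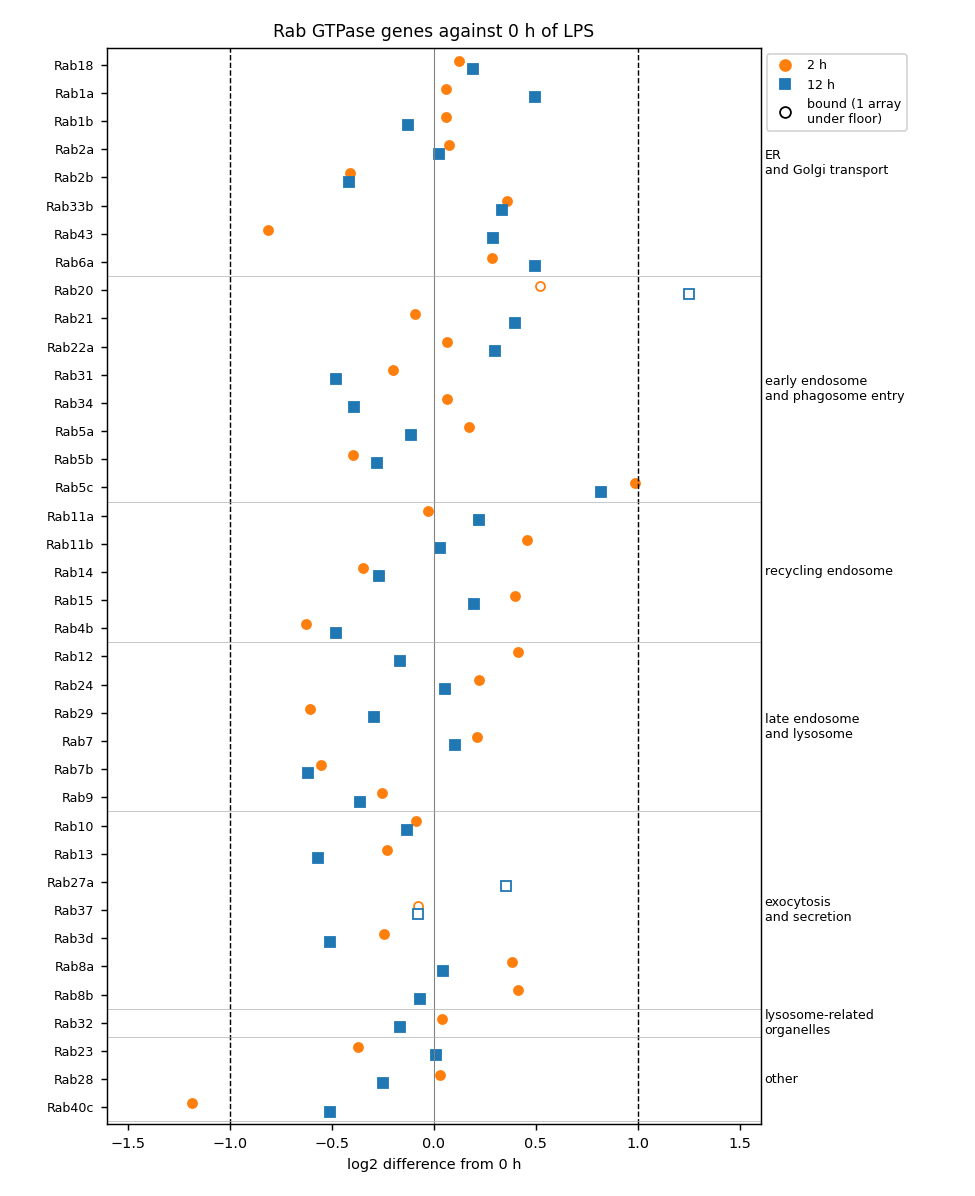
Log2 difference from 0 h of each measured Rab gene at 2 h (circles) and 12 h (squares), grouped by role, with open symbols for bounds and dashed lines at 2-fold. Rab40c at 2 h (-1.18) and Rab20 at 12 h (at least 1.25) lie outside the dashed lines and Rab5c at 2 h (0.99) lies at one of them.

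**Figure D4:**
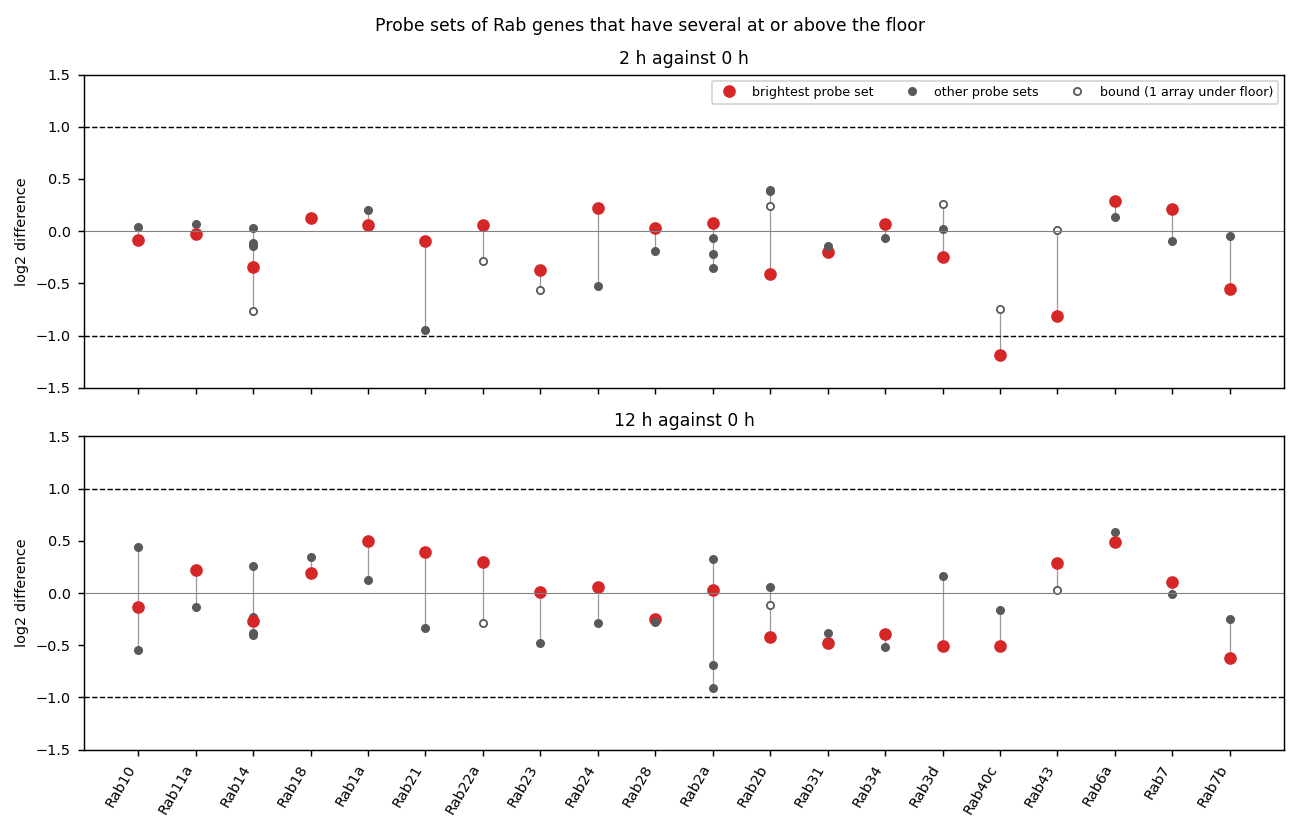
Log2 difference from 0 h of every probe set that reached the floor, for Rab genes with several such sets, at 2 h and 12 h, with open circles for bounds. The sets of Rab31 and Rab34 lie together at 12 h, while those of Rab2a at 12 h and Rab21 at 2 h spread over 1.24 and 0.85.

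Medians are given for the 5 role groups with at least 5 measured genes. Against 0 h, the median log2 difference at 2 h and 12 h was 0.069 and 0.24 for endoplasmic reticulum and Golgi Rabs and 0.064 and 0.095 for early endosome and phagosome Rabs. It was -0.028 and 0.028 for recycling Rabs, -0.021 and -0.23 for late endosome and lysosome Rabs, and -0.082 and -0.077 for exocytosis Rabs. Of these 5 groups, the 2 widest apart at 12 h were the Golgi group, with 6 of 8 genes above 0, and the late endosome group, with 2 of 6. These sign counts rest on the brightest probe sets. The late endosome genes above 0, Rab7 (0.10) and Rab24 (0.054), had second sets at -0.010 and -0.29. Rab2a, at 0.024, and Rab2b had sets of both signs. The second sets of Rab1a, Rab6a, Rab18, Rab43 and Rab7b kept the sign of the brightest. The difference between groups was not tested.

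Genes that act on Rabs were read from lists of exchange factors, GTPase-activating proteins, prenylation and recycling factors, and effectors. Of 19 exchange factors on the array 15 were measured, with 0 higher and 1 lower than at 0 h at both 2 h and 12 h. Over all genes the shares higher and lower were 2.09% and 1.69% at 2 h and 3.01% and 2.4% at 12 h. From 2 h to 12 h these shares were 2.65% and 1.98%. The counts of this and the following lists stand beside these shares. The exchange factor called lower was Rab3il1, which acts on Rab8 and read 117, 39.4 and 30.5. It was 2.97-fold lower at 2 h and at least 3.35-fold lower at 12 h, on the single one of its 5 probe sets that reached the floor. That set carries a cross-hybridisation suffix, and the gene was not measured when suffixed sets were left out or when the median over its sets was read. At the 60th percentile floor its log2 difference was -0.47 at both times. Its substrates Rab8a and Rab8b had their highest signals at 2 h, as given above. From 2 h to 12 h 1 of 15 exchange factors was higher, against 2.65% of all genes. It was Dennd4b, from 96.4 to 248, a gene chosen after its values were seen. The median of the exchange factors was -0.39 at 2 h and -0.065 at 12 h.

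GTPase-activating proteins gave 0 calls against 0 h among 14 measured, a count to read beside those shares, with medians of -0.17 at 2 h and 0.022 at 12 h. Between 2 h and 12 h 1 of 13 was lower, against 1.98% of all genes. It was Tbc1d1, from 127 to 62.4, likewise chosen after its values were seen. The prenylation and recycling factors gave 0 calls in all 3 comparisons among 9 measured. Rabggtb, the catalytic subunit of the enzyme that attaches geranylgeranyl groups to Rabs, read 360, 571 and 475, a log2 difference of 0.66 at 2 h. Its partner Rabggta read 162, 129 and 159, a difference of -0.33. The 2 subunits thus had differences of opposite sign at 2 h, both under 2-fold. The escort protein gene Chm read 13.0, 33.3 and 11.4, under the floor throughout. Gdi2, a GDP dissociation inhibitor, read 2382, 1629 and 1477, a difference of -0.55 and -0.69. That value came from 1 probe set of 6 with a cross-hybridisation suffix; the 2 sets without a suffix gave -0.21 and 0.13 at 2 h, and -0.19 and -0.029 at 12 h.

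Of 31 effectors and tethers on the array, 20 were measured at 2 h, 1 higher and 1 lower, and 21 at 12 h, 2 higher and 0 lower, beside 2.09% and 1.69% of all genes at 2 h and 3.01% and 2.4% at 12 h. Ehd1, which works with Rab11 effectors in endosomal recycling, read 469, 1116 and 1388, 2.38-fold higher at 2 h and 2.96-fold higher at 12 h. All 4 of its probe sets were above 2-fold at both times, with log2 differences from 1.25 to 2.49 at 2 h and from 1.30 to 2.22 at 12 h. Rilpl2, an effector bound by Rab8, Rab10 and Rab36, read 317.5, 483 and 827 and was 2.60-fold higher at 12 h. Pik3c3, the phosphatidylinositol 3-kinase recruited by Rab5 and Rab7, read 99.3, 46.7 and 65.4 and was 2.13-fold lower at 2 h. With median scaling or quantile normalization the Pik3c3 difference was -0.95, with a pseudocount -0.88 and at the higher floor -0.23, all short of 2-fold. The HOPS and CORVET complexes tether endosomes for Rab7 and Rab5. The list kept for them had 7 measured genes, among them Vps33b and Vipas39, which are not subunits of either complex. The 7 listed genes gave 0 calls in all 3 comparisons, to be read beside the shares given with the exchange factors. The medians over the list were -0.26 at 2 h and 0.094 at 12 h. The 12 h median was the value of Vps33b, and Vipas39 had the largest 12 h difference, 0.70, so these medians are not those of the 2 complexes alone.

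The Arf and Arl genes, small GTPases that recruit vesicle coats and act on Golgi and lysosome membranes, are given for comparison. Among 12 measured, 0 were called at 2 h and 1, Arf2, was 2.39-fold lower at 12 h, from 237 to 99.2 on its brightest probe set and -0.45 as the median over its 4 sets. Of all genes, 2.4% were lower at 12 h. Their median at 12 h was 0.16, beside -0.072 for Rab genes. Whether the families differ was not tested.

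The labelled cell type was checked on marker genes. All 10 macrophage markers were above the floor on all 3 arrays, with summed signals of 22076, 22582 and 24428 at 0, 2 and 12 h. Of 25 markers of 5 other cell types, 9 reached the floor at any time, the highest signal being 90.5, and their summed signals were 721, 532 and 720. All 6 T cell markers were under the floor on all arrays, while 4 of 5 granulocyte and mast cell markers reached it at some time. The highest signal of the 25 markers, 90.5 for the B cell marker Blk at 0 h, passed the lowest macrophage marker signal. That was 88.9, for Fcgr3 at 12 h. The part of other cells in the Rab values was not tested.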

How the data were processed

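The deposited values are probe set intensities, 1 column per array, with 1 array for each of 3 times and 22690 probe sets. Per the labels, total RNA was labelled by a modified Affymetrix procedure. Which software computed the intensities is not given in the sources used here. All 3 deposited arrays share one 2% trimmed mean of about 150.05 intensity units, and rescaling on non-control probe sets moved them by at most 0.160%.

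From these, 64 control probe sets were left out. GEO's platform annotation gave 1 gene to 20393 probe sets, several to 691, and did not list 1606. Of those with 1 gene, 20364 matched a RefSeq gene ID. Values were floored at the 40th percentile (34.96) and log2 transformed, and each gene was read from its brightest probe set. A 2-fold difference counted as a call. With 1 array per time no test was run, and precision is limited by the number of arrays. Named were members at least 2-fold apart, the extremes of each role group against 0 h, the 5 brightest at 0 h, and Rab5a, Rab7 and Rab11a, with signals for all members above the floor. From each other list came up to 4 genes 2-fold apart from 0 h, plus Gdi2, Chm, Rabggta and Rabggtb. The result of 1 further list is not reported here. The members, lists and rules were chosen with earlier results of these data known. As alternatives, arrays were left unscaled, set to one median or quantile normalized; the floor was put at the 20th or the 60th percentile or replaced by a pseudocount of 16; genes were read by the median of their probe sets, or without suffixed probe sets; and the limit was 1.5-fold or 3-fold. Scripts ran in Python 3.11.15 with pandas 2.3.3, numpy 2.4.6 and matplotlib 3.10.9, and were tested on simulated data.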

Additional observations from a re-analysis of the deposited data

How the results depend on the processing

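Among the counts of Rab genes called, these changed with the processing. For 12 h against 0 h, the 1 higher gene became 0 at the 60th percentile floor, where Rab20 was no longer measured, 2 at 1.5-fold and 0 at 3-fold, and the 0 lower genes became 1 at the 20th percentile floor (Rab17) and 1 at 1.5-fold (Rab7b). For 12 h against 2 h, the 1 higher gene became 0 at the 60th percentile floor, with the pseudocount, with the median over probe sets and at 3-fold, and 3 at 1.5-fold, and the 0 lower genes became 1 at the 20th percentile floor (Rab17). For 2 h against 0 h, the 0 higher genes became 1 with median scaling, quantile normalization or 1.5-fold (Rab5c each time), and the 1 lower gene became 0 with the median over probe sets or at 3-fold and 4 at 1.5-fold. The family median ran from -0.028 to 0.18 at 2 h and from -0.11 to -0.019 at 12 h against 0 h, and from -0.15 to -0.028 at 12 h against 2 h. Of 573 values of the 25 named Rab genes under alternatives, 559 moved by less than the probe set SD over all genes. That SD was 0.32 at 2 h and 0.34 at 12 h against 0 h, and 0.31 at 12 h against 2 h. The other 14 moved by more, and no 2-fold difference turned its sign. Much of this sameness was set in advance. The unscaled arrays already shared a trimmed mean, and floor changes leave bright genes untouched. A gene with 1 probe set cannot move when sets are read by their median. Values not measured under an alternative, such as Rab20 at the 60th percentile floor, are not among the 573. The count is therefore no measure of how firm the values are. Dim genes are limited by signal over background, and a gene with 1 probe set has no check within the array. Leaving out an array was not possible with 1 per time. No paired analysis was possible because each time had 1 array.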
